A study of Homo sapiens with 12 samples.

Results

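The histone gene cluster and the HLA region of chromosome 6 were described with every interval that met chr6:25700001-31500000 or chr6:32300001-33500000 on hg19. These 2 windows hold 7.0 Mb, read here as 70 steps of 100 kb. They met 2592 of the 416692 intervals in the 10 deposited lists. The cells were MDA-MB-231, a human triple negative breast cancer line, which had been starved of serum overnight in both groups. One group then received DETA/NO, a slow nitric oxide donor, at 500 µM for 24 h, and the other was left untreated. Chromatin immunoprecipitation and sequencing mapped acetylation (H3K9ac) and dimethylation (H3K9me2) of lysine 9 of histone H3 in 2 biological replicates per condition and mark, and the 4 inputs were not analysed here. The question of the design was how nitric oxide altered the distribution of both marks, with the untreated cells as control.

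Both marks sit on the same residue and exclude each other on a single histone tail. H3K9ac is placed by acetyltransferases and lies at active promoters and enhancers, whereas H3K9me2 is placed mainly by the G9a and GLP methyltransferases and spreads over silent domains. The histone genes of this cluster encode the core and linker histones that package newly made DNA in S phase. HLA class I genes encode the molecules that display peptides to cytotoxic T cells in nearly all cell types. HLA class II genes do so for helper T cells and are transcribed mainly in antigen-presenting cells, or elsewhere after interferon gamma.

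The windows were read as 4 stretches. The histone gene stretch was chr6:25700001-27900000 (22 steps), the stretch between the histone genes and class I was chr6:27900001-29600000 (17 steps), HLA class I was chr6:29600001-31500000 (19 steps), and HLA class II was the whole second window (12 steps). No annotation on hg19 was used, so no gene was tied to a step and the names of the stretches were not checked against gene positions. In a RefSeq table on GRCh38.p14, of which only the order of the genes was used, the histone stretch runs from H2AC1 to H2BC17 with 74 protein-coding genes, 55 of them histone genes and 6 butyrophilin genes. The stretch that follows has 38 protein-coding genes. Zinc finger genes (11 named ZNF, ZSCAN or ZKSCAN) stand mostly at its start and olfactory receptor genes (16) mostly towards its end, among 18 olfactory receptor pseudogenes. From HLA-F to MICB there are 49 protein-coding genes, which include 6 HLA and 7 TRIM genes, and from HLA-DRA to ZBTB9 there are 38, which include 13 HLA genes. Against the steps of each stretch, the one between the histone genes and class I was the poorest in protein-coding genes, at 38 for 17 steps. Class I had 49 for 19 steps, class II 38 for 12 and the histone stretch 74 for 22. With genes of all kinds counted it was not the poorest, at 168 for 17 steps. Class I then had 139 for 19 steps and class II 73 for 12.

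H3K9ac was called in 608 and 502 peaks of the windows in DETA/NO cells (replicates 1 and 2) and in 572 and 403 peaks in untreated cells. H3K9me2 was called in 26 and 18 islands in DETA/NO cells and in 17 and 28 islands in untreated cells. The reproducible H3K9ac sets, which the authors made from both libraries of a condition, held 225 regions in the windows for DETA/NO and 193 for untreated cells. The lists hold positions and a score, not reads, so depth and copy number are unknown and an uncovered step is only one in which nothing was called. The narrowest H3K9ac peak was 99 and 114 bp wide in the DETA/NO lists and 238 and 175 bp in the untreated ones. Untreated replicate 1 stood apart with the longest H3K9ac list, 120630 peaks, against 79538 and 69151 in DETA/NO cells and 59724 in untreated replicate 2. With 2 libraries against 2, no exact permutation of the labels can give a p below 0.333, and that p is named below where it was reached.

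Both marks were denser here than in the genome at large. H3K9ac peaks covered 7.54 and 5.38% of the windows in DETA/NO cells and 4.76 and 3.03% in untreated cells. These shares were 4.40 and 4.31 times those of the other chromosomes in DETA/NO cells and 2.97 and 4.03 times in untreated cells. H3K9me2 islands covered 19.5 and 18.9% of the windows in DETA/NO cells and 17.9 and 19.5% in untreated cells, which was 2.18 and 2.75 times the share on other chromosomes in DETA/NO cells and 2.51 and 2.49 times in untreated cells. All 4 libraries of each mark lay above 1 (exact sign-flip test, two-sided p = 0.125, the smallest that 4 libraries allow). Set against the rest of chromosome 6, the H3K9ac ratio was 4.99 and 5.24 in DETA/NO cells and 3.76 and 4.91 in untreated cells. The H3K9me2 ratio was only 1.16 and 1.11 in DETA/NO cells and 1.02 and 1.10 in untreated cells. H3K9me2 covered 16.8 to 17.7% of the rest of that chromosome in the 4 libraries.

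The 2 marks divided the windows into blocks. Of the 70 steps, 37 held a reproducible H3K9ac region and no H3K9me2 island in any of the 4 libraries. A further 9 had no reproducible H3K9ac region and at least 50% H3K9me2 in all 4 libraries. H3K9me2 at 50% or more and a reproducible H3K9ac region fell together in 1 step, and 15 steps held a reproducible region beside H3K9me2 of lesser or variable extent. Another 5 steps had some H3K9me2 and no reproducible region, and 3 steps had neither. Steps with a reproducible H3K9ac region made up 75.7% of the windows and 33.9% of 30355 genome bins of the same size, and steps with neither feature 4.29% and 37.2%.

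**Figure D1:**
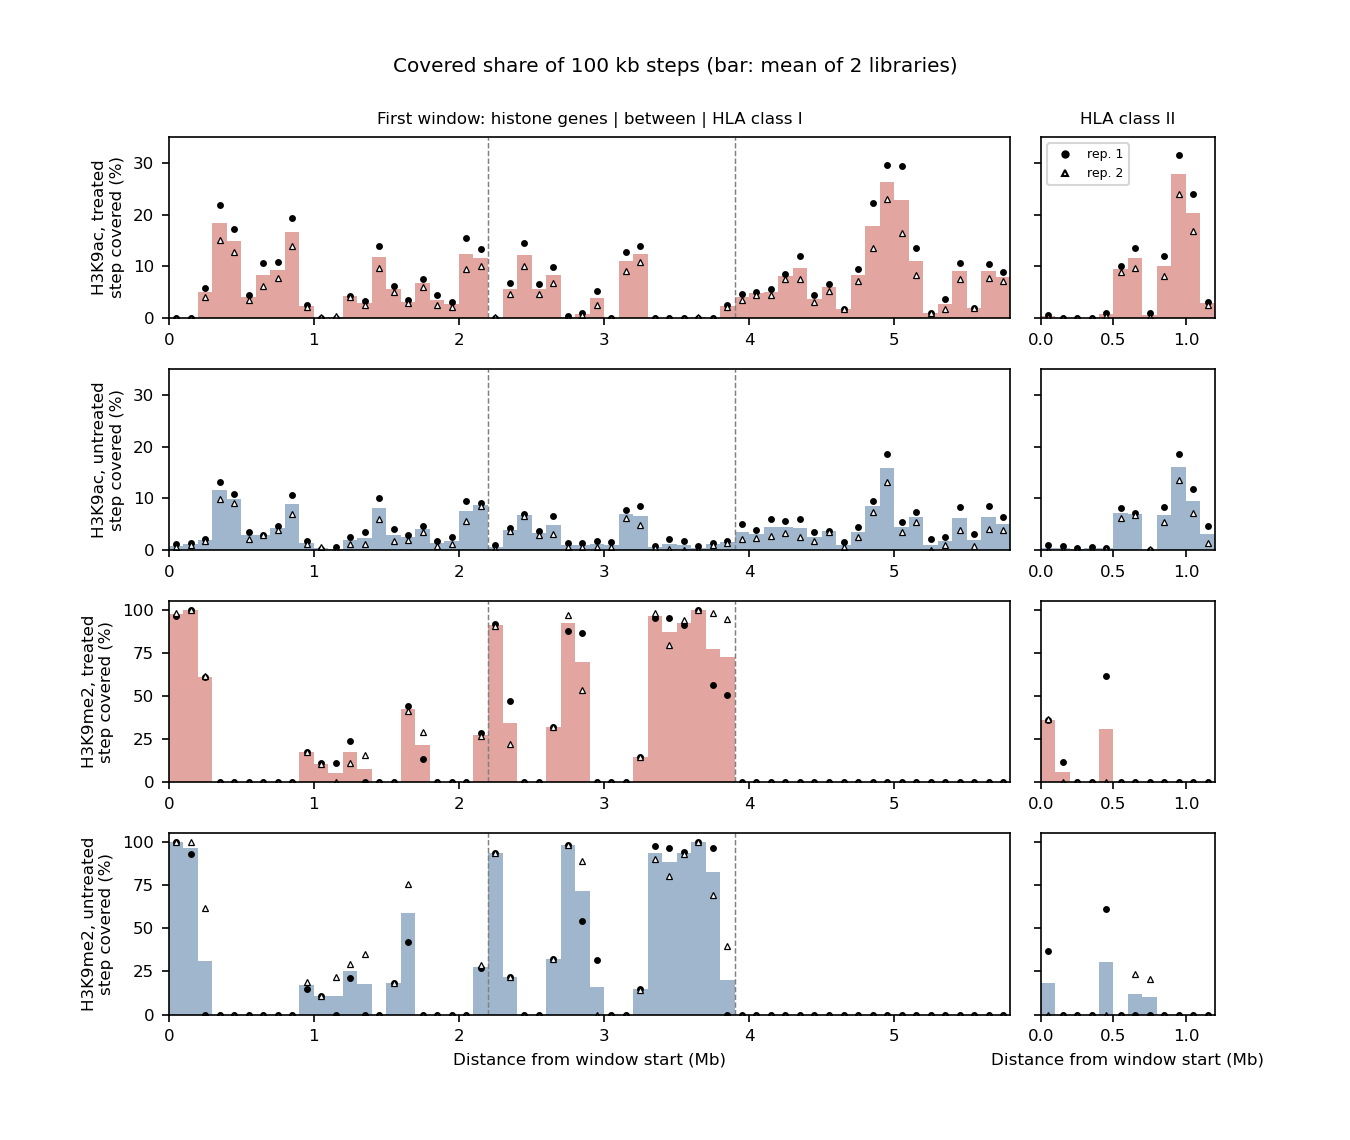
Share of each 100 kb step covered by H3K9ac peaks (upper pair of rows) and H3K9me2 islands (lower pair), in DETA/NO (treated) and untreated cells, against distance from the start of each window in Mb. Bars are means of 2 libraries, circles replicate 1 and triangles replicate 2, and dashed lines part the stretches; H3K9me2 fills much of the middle stretch and is absent from all 19 class I steps.

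The histone gene stretch alternated between the marks. Its first 2 steps, chr6:25700001-25900000, were H3K9me2 domain. The step from 25700001 was covered to 96.5 and 98% in DETA/NO cells and to 100% in both untreated libraries. The step from 25800001 was covered to 100% in both DETA/NO libraries and to 93 and 100% in untreated cells. Neither step held H3K9ac in DETA/NO cells, while untreated cells had short peaks over 1.19 and 0.548% of the first and 1.38 and 0.971% of the second. The 6 steps of chr6:26000001-26600000 then carried reproducible H3K9ac and no island in any library.

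The most acetylated step of the histone stretch was chr6:26000001-26100000. H3K9ac covered 21.8 and 15.1% of it in DETA/NO cells and 13.2 and 9.92% in untreated cells, with 8 reproducible regions in the DETA/NO set and 11 in the untreated set. The steps from 27100001 and 27700001 repeated this pattern of dense H3K9ac and no island. They had 14.0 and 9.59% and 15.4 and 9.40% H3K9ac in DETA/NO cells, against 10.2 and 6.14% and 9.43 and 5.58% in untreated cells. Between these acetylated steps, some H3K9me2 was alike in all 4 libraries and some differed by library. The step from 26700001 had 11 and 10.5% in DETA/NO cells and 11% in both untreated libraries. The step from 26800001 had 11.5 and 0% in DETA/NO cells and 0 and 21.5% in untreated cells, and the step from 27000001 had 0 and 16% in DETA/NO cells and 0 and 35% in untreated cells.

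The stretch between the histone genes and class I held most of the H3K9me2. Islands covered 49.9 and 51.4% of it in DETA/NO cells and 48.9 and 48.2% in untreated cells. Both DETA/NO libraries lay above both untreated ones, by 35.8 kb on average (861.0 kb ± 18.4 against 825.3 kb ± 7.42, SD, n = 2 each; exact permutation p = 0.333). As a share of each library's H3K9me2 bases the groups overlapped, at 0.298 and 0.386% in DETA/NO cells and 0.353 and 0.322% in untreated cells. The step from 29500001 alone was 52.75 percentage points higher in DETA/NO cells on average. Of the 13 steps with an island, 1 was higher in both DETA/NO libraries and 2 were lower. Over the genome, 9.96% of 10583 bins with an island were higher by this rule and 11.2% lower. Of its 17 steps, 8 were covered to at least 50% in all 4 libraries. They lay at chr6:27900001-28000000, chr6:28400001-28600000 and chr6:29000001-29500000. The last run was 5 steps long with 56.5 to 100% cover, and its step from 29300001 was covered to 100% in all 4 libraries. The step from 29000001 was covered to 95 and 98% in DETA/NO cells and to 97.5 and 90% in untreated cells, and the step from 28400001 to 87.5 and 97% in DETA/NO cells and to 98% in both untreated libraries.

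H3K9ac in that stretch was packed between these domains. The step from 28100001 had 14.4 and 10.1% H3K9ac in DETA/NO cells and 7.09 and 6.63% in untreated cells, with no island in any library. The steps from 28800001 and 28900001 had 12.8 and 9.08% and 13.9 and 10.8% in DETA/NO cells, against 7.86 and 6.17% and 8.56 and 4.81% in untreated cells. The 5-step H3K9me2 run follows directly upon them. Within this stretch the Spearman correlation between mean H3K9ac and mean H3K9me2 over 17 steps was -0.75, against -0.50 over the 22 histone steps, -0.16 over the 12 class II steps and -0.52 over all 70. These are descriptions of neighbouring steps from shared libraries and carry no p.

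HLA class I was free of H3K9me2 in every library. All 19 steps, 1.9 Mb, held at least 1 reproducible H3K9ac region and no island in any of the 4 libraries. Island-free stretches of this length are common: 147 runs of 19 or more steps hold 44.6% of the genome bins. H3K9ac covered 9.97 and 7.02% of class I in DETA/NO cells and 5.93 and 3.44% in untreated cells. This was the highest share of the 4 stretches in 3 libraries, and in untreated replicate 2 it stood level with class II, at 3.44 against 3.43%. The acetylation was uneven within it. The steps from 30300001, 30900001 and 31200001 had 1.00 to 1.92% in DETA/NO cells and 0 to 3.20% in untreated cells. The step from 30600001 had 29.5 and 22.97% in DETA/NO cells and 18.7 and 13.2% in untreated cells.

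HLA class II was split in its middle. Its first 4 steps, chr6:32300001-32700000, held no reproducible H3K9ac region in either set. H3K9ac peaks there covered at most 0.621% of a step in DETA/NO cells and at most 0.946% in untreated cells. In the table's gene order this stretch opens with the DR and DQ genes, classical class II peptide receptors. It passes through the TAP and PSMB antigen processing genes and the DP genes to genes outside the HLA families, among them RXRB, RING1, RPS18, TAPBP and DAXX. From 32800001 onward, 6 of 7 steps held reproducible H3K9ac. The step from 33200001 had the highest mean H3K9ac cover of all 70 over the 4 libraries, with 31.4 and 24.0% in DETA/NO cells and 18.6 and 13.5% in untreated cells. The step from 33300001 had 23.9 and 16.8% in DETA/NO cells and 11.8 and 7.29% in untreated cells.

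H3K9me2 in class II differed between replicates of 1 condition more than between conditions. The step from 32300001 was covered to 36 and 36.5% in DETA/NO cells and to 37 and 0% in untreated cells. The step from 32700001 was covered to 61.5 and 0% in DETA/NO cells and to 61 and 0% in untreated cells, so replicate 1 had an island in both conditions and replicate 2 in neither. The steps from 32900001 and 33000001 had islands only in untreated replicate 2, over 23.5 and 20.5% of the step. No class II step reached 50% in all 4 libraries.

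In all, 10 of the 70 steps were covered by H3K9me2 to at least 50% in all 4 libraries of that mark, 14.3% of the windows against 3.05% of 30355 genome bins. At 80% there were 7 steps, 10.0% against 1.53%. No such count for the rest of chromosome 6, which islands covered to 16.8 to 17.7%, stands beside these. Sequence under an island in all 4 libraries added up to 941 kb, 13.4% of the windows, out of 1722 kb under an island in at least 1. It formed 19 segments with a median of 42.5 kb. The widest were chr6:29269001-29456500 with 187.5 kb, in the stretch before class I, and chr6:25729501-25893000 with 163.5 kb, at the start of the histone stretch. No reproducible H3K9ac region of either set lay inside any of the 19 segments.

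Some edges of these domains were placed alike in all 4 libraries and lay close to H3K9ac. The island at chr6:28368001 began at the same grid point in the 4 libraries, on a grid of 500 bp. The nearest reproducible H3K9ac region before it ended 0.473 kb away in the DETA/NO set and 0.410 kb away in the untreated set. The common segment from 28985501, the left end of the 5-step run, had island starts within 0.5 kb of each other. H3K9ac ended 0.243 kb before this segment in DETA/NO cells and 0.396 kb before it in untreated cells. In both DETA/NO libraries and untreated replicate 1 the island began at 28985001, so both H3K9ac regions overlapped it. The common segment from 27873001, at the right end of the histone stretch, had island starts within 1.5 kb. H3K9ac ended 1.00 kb before this segment in DETA/NO cells and 2.32 kb before it in untreated cells. In DETA/NO replicate 1 and untreated replicate 2 the island began at 27871501, and the DETA/NO region, which ended at 27871997, overlapped it. Of the 19 segments, 7 had island starts within 2 kb in all 4 libraries and 2 had ends within 2 kb. These 3 edges were picked for their closeness after the distances were seen.

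Reproducible H3K9ac seldom met an H3K9me2 island of any library. It did so for 4 of 225 regions of the DETA/NO set and 1 of 193 of the untreated set. The DETA/NO regions were chr6:27355402-27357643, chr6:27869591-27871997, chr6:28554632-28555018 and chr6:28983881-28985257, with widths of 2242, 2407, 387 and 1377 bp. The untreated region was chr6:28983912-28985104, 1193 bp wide, and it overlapped the last of them at the domain edge described above.

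**Figure D2:**
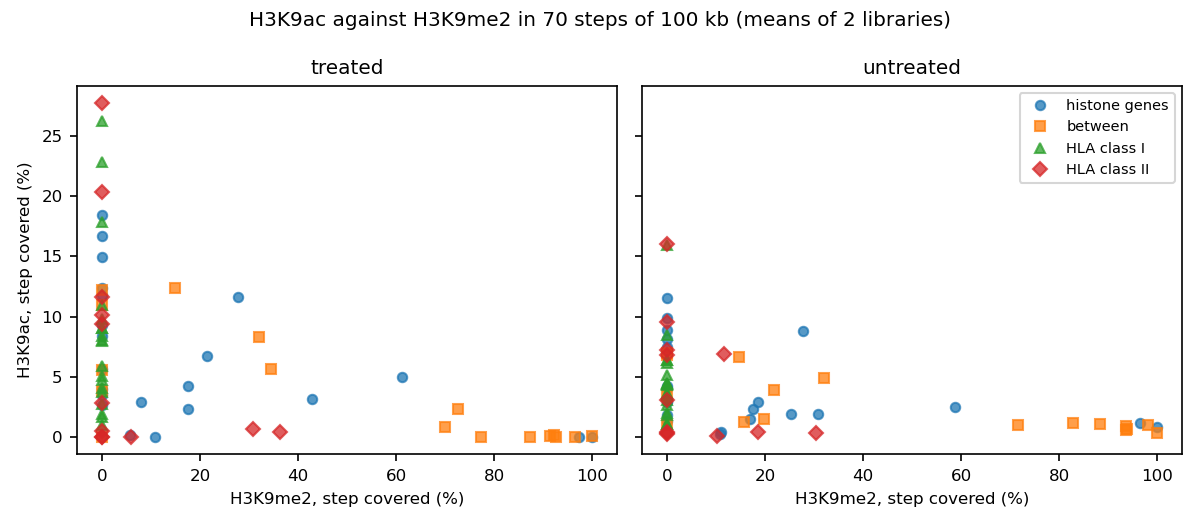
H3K9ac against H3K9me2 as the covered share of a 100 kb step in percent, in DETA/NO (treated, left) and untreated cells (right), each point the mean of 2 libraries and each colour and shape a stretch. By these means, steps above 10% H3K9ac lie at 27.8% H3K9me2 or less, and steps above 75% H3K9me2 have at most 1.22% H3K9ac.

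Short, unreproduced H3K9ac peaks did fall inside the common H3K9me2 segments, and they were more numerous in untreated cells. There were 1 and 6 such peaks in DETA/NO cells and 46 and 18 in untreated cells, or 0.164 and 1.20% of the peaks in the windows in DETA/NO cells and 8.04 and 4.47% in untreated cells. The groups did not overlap (exact permutation p can reach only 0.333). Over the genome, by the same rule, the shares were 0.160 and 1.09% in DETA/NO cells and 2.76 and 2.03% in untreated cells. The median width of these peaks was 106 and 126.5 bp in DETA/NO cells and 264.5 and 189 bp in untreated cells, near the narrowest peak of each list given above. Their median score lay at the 35.8 and 41.8 percentile of their own list in DETA/NO cells and at the 35.4 and 39.1 percentile in untreated cells. H3K9ac covered 0.0113 and 0.0865% of the common H3K9me2 sequence in DETA/NO cells and 1.46 and 0.422% in untreated cells. In sequence with no island in any library it covered 9.94 and 7.09% in DETA/NO cells and 5.94 and 3.89% in untreated cells. The part of list length and of the narrowest called width in these counts was not tested.

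Between conditions, H3K9ac took up more of the windows in DETA/NO cells. Peaks covered 527.6 and 376.7 kb in DETA/NO cells and 333.0 and 212.0 kb in untreated cells (452.1 kb ± 106.7 against 272.5 kb ± 85.6, SD, n = 2 each). The groups did not overlap, with a difference of 179.6 kb and a ratio of 1.66 (exact permutation p = 0.333). The difference was 104.2 kb without DETA/NO replicate 1 and 119.1 kb without untreated replicate 2. The windows also held a larger share of each library's covered bases, 1.01 and 0.996% in DETA/NO cells and 0.689 and 0.932% in untreated cells (p = 0.333 by the same exact permutation test). That difference of 0.194 percentage points was 0.0731 without untreated replicate 1 and 0.316 without untreated replicate 2. It was 0.135 with lists cut to equal length and 0.0557 with only the intervals above the median score of each list. Peak numbers overlapped between the groups, as did median peak widths, at 351.5 and 326 bp in DETA/NO cells and 353.5 and 345 bp in untreated cells. The groups parted in wide peaks: those of at least 1000 bp numbered 171 and 131 in DETA/NO cells and 84 and 44 in untreated cells, a ratio of 2.36. No count of such peaks over the genome stands beside these or the counts by stretch below. The contrast therefore cannot be called particular to the windows.

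**Figure D3:**
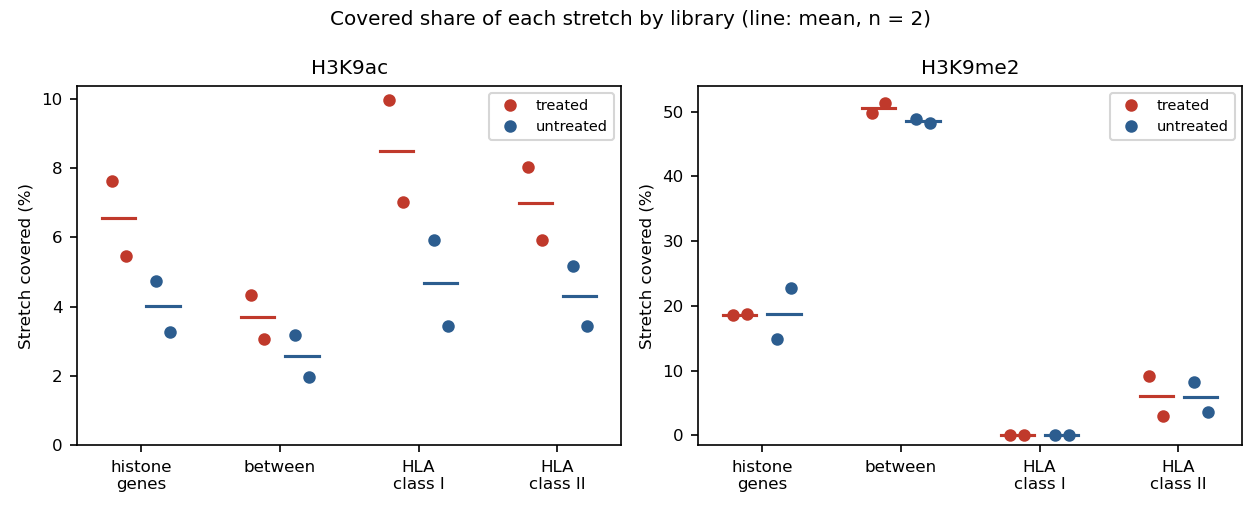
Covered share of each stretch in percent, for H3K9ac (left) and H3K9me2 (right), with 1 point per library and a line at the mean of 2, DETA/NO (treated) beside untreated. H3K9ac groups part in the histone, class I and class II stretches and overlap in the stretch between, where H3K9me2 is near 50% in all 4 libraries.

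Mean H3K9ac cover was higher in DETA/NO cells in all 4 stretches, with the smallest ratio in the H3K9me2-rich one. Peaks covered 7.64 and 5.46% of the histone stretch in DETA/NO cells and 4.75 and 3.28% in untreated cells, a ratio of 1.63. In class I the ratio was 1.81. In class II, with 8.04 and 5.93% in DETA/NO cells and 5.18 and 3.43% in untreated cells, it was 1.62. In the stretch between the histone genes and class I the groups overlapped, at 4.33 and 3.07% in DETA/NO cells and 3.17 and 1.97% in untreated cells, a ratio of 1.44. As shares of each library's covered bases, the ratios were 1.20 in the histone stretch, 1.38 in class I, 1.21 in class II and 1.08 between. In the stretch between, these shares overlapped, at 0.141 and 0.138% in DETA/NO cells and 0.111 and 0.147% in untreated cells. In the histone stretch they parted only as 0.31741% in DETA/NO replicate 2 against 0.3168% in untreated replicate 2. Whether the ratios differ between stretches was not tested. Wide peaks of at least 1000 bp were more numerous in both DETA/NO libraries in each stretch. They numbered 65 and 43 in DETA/NO cells against 22 and 12 in untreated cells in the histone stretch, and 56 and 43 against 33 and 14 in class I. In the stretch between, 28 and 24 in DETA/NO cells stood against 12 and 5 in untreated cells, although all peaks together were fewer there, at 80 and 74 in DETA/NO cells against 114 and 84 in untreated cells.

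By steps, both DETA/NO libraries lay above both untreated ones for H3K9ac in 35 of 70 steps (50.0%), against 21.0% of the 27253 genome bins with any H3K9ac. They lay below in 8 steps (11.4%), against 30.0% of bins. Steps that hold a reproducible region are commoner in the windows, and among those alone the count was 35 of 53 (66.0%), against 52.9% of such bins in the genome, with 0 steps below against 4.27%. All 8 steps in which DETA/NO was below were among the 17 without a reproducible region (47.1%, against 38.6% of such genome bins). The reproducible sets were called in these same libraries and the DETA/NO set is the larger. Some steps hold a region of that set alone, so the split partly fixes these directions. The 35 higher steps fell as 12 of 22 in the histone stretch, 8 of 17 in the stretch between, 11 of 19 in class I and 4 of 12 in class II.

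No step passed limma with Benjamini-Hochberg adjustment over all bins of the genome. For H3K9ac it called 0 of 70 steps, as it called 0% of 27253 bins, and the lowest adjusted p in the windows was 0.316. At an unadjusted p under 0.05 there were 12 steps (17.1%), 8 higher and 4 lower in DETA/NO cells, against 14.9% of all bins. With a single untreated library it called 3 steps lower without untreated replicate 1 (4.29%, against 15.4% of bins) and 7 lower without untreated replicate 2 (10.0%, against 23.8%).

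The largest H3K9ac difference of any step was at chr6:30700001-30800000 in class I. H3K9ac covered 29.3 and 16.4% of it in DETA/NO cells and 5.37 and 3.45% in untreated cells (22.8% ± 9.10 against 4.41% ± 1.36, SD, n = 2 each). Both DETA/NO libraries were above both untreated ones by a wide margin, although the DETA/NO libraries also differed most from each other here. The limma estimate was 0.28 ± 0.063 (SE) on the arcsine square root scale, with an adjusted p of 0.316. The step met 12 reproducible regions of the DETA/NO set and 3 of the untreated set. In class I, the steps on its left were also among the 5 with the largest differences. The step from 30600001, given above, differed by 10.3 percentage points, and the step from 30500001 by 9.34 points, with 22.2 and 13.5% in DETA/NO cells and 9.53 and 7.45% in untreated cells. The others were the class II steps from 33200001 and 33300001, with 11.7 and 10.8 points.

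Differences in the other direction were small and lay in H3K9me2 domains or steps with little of either mark. The step from 29400001 had no H3K9ac in DETA/NO cells and 1.33 and 1.10% in untreated cells. The step from 25800001, also free of it in DETA/NO cells, had 1.38 and 0.971% in untreated cells. The step from 29100001 had 0.106 and 0% in DETA/NO cells and 2.09 and 0.175% in untreated cells. The step from 28700001 had 0 and 0.118% in DETA/NO cells and 1.52 and 0.588% in untreated cells. The step from 29200001 had 0% in both DETA/NO libraries and 1.87 and 0% in untreated cells, so there untreated replicate 1 alone made the difference.

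The reproducible regions differed in width more than in number. The DETA/NO set had 225 regions over 435.8 kb with a median width of 1641 bp, and the untreated set had 193 over 229.5 kb with a median of 1018 bp. Over the genome the medians were 1571 and 1115 bp for the 21098 DETA/NO and 14377 untreated regions, so the same contrast is found outside the windows. By stretch, the DETA/NO and untreated medians were 1654 and 883.5 bp for the histone stretch and 1924 and 1047 bp for the stretch between. They were 1467 and 1079 bp for class I and 2030 and 1503 bp for class II. Regions of at least 3000 bp numbered 34 in the DETA/NO set (15.1%, against 16.8% in the genome) and 6 in the untreated set (3.11%, against 2.35%). Each condition has 1 set, so these values have no replicate error.

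**Figure D4:**
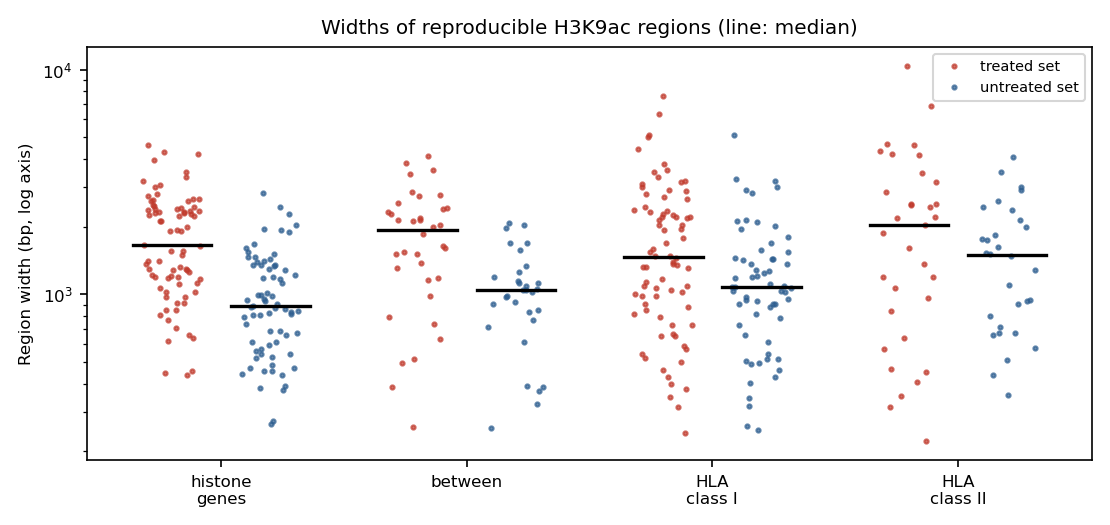
Width of each reproducible H3K9ac region in bp on a log axis, by stretch, for the DETA/NO (treated) set and the untreated set, with 1 point per region and a line at the median. The DETA/NO median is the larger in each stretch, and the widest region, of 10400 bp, is in class II.

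Wide DETA/NO regions often spanned several untreated ones. In the DETA/NO set, 32 regions (14.2%, against 8.20% in the genome) met at least 2 regions of the untreated set, while 2 of the untreated set (1.04%, against 1.37%) met at least 2 of the DETA/NO set. The histone stretch had 16 of these 32. The widest region, chr6:32934487-32944886 in class II, was 10400 bp and met 2 untreated regions. Peaks covered 10400 and 8877 bp of it in DETA/NO cells and 6478 and 6499 bp in untreated cells. In class I, chr6:31459991-31467608 was 7618 bp and met 3 untreated regions, with 7509 and 6413 bp covered in DETA/NO cells and 5398 and 3528 bp in untreated cells.

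In the other 3 of the 5 widest, both DETA/NO libraries likewise covered more of the region than both untreated ones. In class II, chr6:33238594-33245491 had 6797 and 5750 bp covered in DETA/NO cells and 3498 and 2819 bp in untreated cells. In class I, chr6:30581569-30587893 had 6124 and 5247 bp covered in DETA/NO cells and 3095 and 2457 bp in untreated cells. At chr6:30708365-30713506, in the step of the largest difference, 5142 and 4157 bp were covered in DETA/NO cells and 3097 and 2345 bp in untreated cells. The regions were chosen for their width in the DETA/NO set, so the direction of these values is set by the choice and was not tested.

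Gained H3K9ac regions, those of the DETA/NO set that overlapped no peak called in the untreated libraries, numbered 28 of 225 in the windows (12.4%, against 15.1% in the genome). Lost regions, by the mirror rule, numbered 3 of 193 (1.55%, against 4.40%). The windows thus did not exceed the genome's share of either kind. Without untreated replicate 1, with its long list, 50 regions counted as gained. Most gained regions were short: 25 of 28 were under 1000 bp and the median width was 481.5 bp. None of them scored above the median of the DETA/NO set. By stretch, 15 of 78 DETA/NO regions in class I were gained and 5 of 33 in class II. In the histone stretch 4 of 79 were gained, and 4 of 36 in the stretch between. A region across a bound counts in both totals, and whether the stretches differ was not tested.

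Of the 15 in class I, 7 lay in the step from 30700001, and 5 of these stood in a chain at chr6:30715310-30722470, with gaps of at most 1000 bp. Peaks covered 6352 and 4039 bp of these 7161 bp in DETA/NO cells and 0 bp in both untreated libraries. Within the 5 regions the rule for gained regions fixes this 0, and only the gaps between them could have held an untreated peak. The chain held the gained regions with the 2 highest authors' scores of the windows, chr6:30719000-30720172 with 5.13 and chr6:30720437-30721461 with 4.88, and the widest, chr6:30716002-30718918 with 2917 bp. It begins to the right of the wide region at chr6:30708365-30713506, which was called in all 4 libraries. Next in score were chr6:30456705-30457105 with 4.56 and chr6:30500433-30500862 with 4.18, both in class I, and chr6:26342056-26342868 with 3.60 in the histone stretch. These scores are the authors' and were read as −log10 of an irreproducible discovery rate.

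The 3 lost regions were also narrow and low in score. They were chr6:26494820-26495210 in the histone stretch with a score of 2.13, chr6:32816551-32816908 in class II with 1.66, and chr6:29622584-29623098 in class I with 1.41. Their widths were 391, 358 and 515 bp.

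When the regions of both sets were merged and their covered share was fitted by limma over all 21944 merged regions of the genome, 41 of the 230 in the windows (17.8%) were higher in DETA/NO cells, against 24.9% of all. A further 3 (1.30%) were lower, against 2.97%. These 3 are the lost regions given above, and the 28 gained regions are all among the 41. By their rule, gained and lost regions are at 0 in both libraries of the other condition, so these calls restate it. The median difference on the arcsine square root scale was 0.54 in the windows and 0.58 over all regions. The regions were called in the same libraries and the DETA/NO set is the larger and wider, so the choice of regions partly fixes this direction. Of the 41, 32 were among the 74 merged regions of the windows that hold only DETA/NO regions (43.2%, against 43.4% of such regions in the genome). A further 8 were among the 149 that hold regions of both sets (5.37%, against 11.6%). Of the 7 that hold only untreated regions, 1 was higher (14.3%, against 0.574%) and 3 were lower (42.9%, against 62.1%). These 7 lack a region of the DETA/NO set, not always DETA/NO peaks. Peaks of both DETA/NO libraries wholly covered chr6:30649363-30649907, the 1 called higher, and also chr6:30650002-30655118 and chr6:30655302-30656331. In a separate limma fit on regions of both sets alone, 0 passed the adjustment in the windows and in the genome. There, 81 of the 149 (54.4%) had an unadjusted p under 0.05, against 54.4% of 11387 in the genome. The count of higher regions was 2 without untreated replicate 1 (0.870%, against 1.24% in the genome) and 4 without untreated replicate 2 (1.74%, against 3.76%).

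The conditions overlapped in H3K9me2 over the windows as a whole. Islands covered 1365 and 1323 kb in DETA/NO cells and 1256 and 1364 kb in untreated cells (1344 kb ± 29.7 against 1310 kb ± 76.4, SD, n = 2 each; exact permutation p = 0.667). The difference of 34.0 kb became -20.0 kb without untreated replicate 1. The share of each library's H3K9me2 that lay in the windows was 0.479 and 0.585% in DETA/NO cells and 0.534 and 0.536% in untreated cells. In the histone stretch the untreated libraries, at 14.9 and 22.7%, lay on either side of the DETA/NO libraries, at 18.5 and 18.8%.

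Of the 30 steps with an island in any library, both DETA/NO libraries lay above both untreated ones in 2 (6.67%, against 9.96% of 10583 genome bins) and below in 4 (13.3%, against 11.2%). Limma called 0 of the 30, as it called 0% of the bins, with a lowest adjusted p of 0.841. At an unadjusted p under 0.05 there were 3 steps (10.0%), against 2.96% of the bins. Without DETA/NO replicate 2 it called 2 steps higher (6.67%, against 14.4% of bins) and 1 lower (3.33%, against 0.709%). For H3K9me2 islands the Jaccard index of covered bases was 0.767 between the DETA/NO libraries, 0.679 between the untreated libraries and 0.687 to 0.729 across conditions. For H3K9ac it was 0.637 between the DETA/NO libraries, 0.425 between the untreated libraries and 0.345 to 0.490 across conditions.

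The 5 largest H3K9me2 differences towards DETA/NO cells were found in 3 stretches and none in class I. The step from 29500001, at the right end of the 5-step run and beside class I, was covered to 50.5 and 94.5% in DETA/NO cells and to 0 and 39.5% in untreated cells. The groups did not overlap, and its mean was 52.8 points higher in DETA/NO cells. The step from 27400001 had 13.5 and 29.5% in DETA/NO cells and 0% in both untreated libraries. These were the 2 steps in which both DETA/NO libraries were higher in H3K9me2. H3K9ac was also higher there in both DETA/NO libraries. It covered 2.588 and 2.155% of the step from 29500001 in DETA/NO cells and 1.719 and 1.391% in untreated cells. In the step from 27400001 it covered 7.475 and 5.93% in DETA/NO cells and 4.745 and 3.461% in untreated cells. The step from 25900001 had 61 and 61.5% H3K9me2 in DETA/NO cells and 0 and 61.5% in untreated cells. Untreated replicate 1 alone lacked the island there. The class II step from 32300001, given above, came next with 17.8 points and rests on untreated replicate 2, which alone lacked an island there. The step from 28000001 had 47 and 22% in DETA/NO cells and 22 and 21.5% in untreated cells.

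In the other direction, the step from 27200001 had 0% in both DETA/NO libraries and 18.5% in both untreated libraries. It held 4 reproducible H3K9ac regions in the DETA/NO set and 2 in the untreated set, with 6.22 and 5.10% H3K9ac in DETA/NO cells and 4.08 and 1.73% in untreated cells. Its neighbour from 27300001 had 44 and 41.5% H3K9me2 in DETA/NO cells and 42 and 75.5% in untreated cells. The step from 28600001 had no island in DETA/NO cells and 31.5 and 0% in untreated cells. It met 4 reproducible H3K9ac regions in the DETA/NO set and 0 in the untreated set, and H3K9ac covered 5.22 and 2.47% of it in DETA/NO cells and 1.79 and 0.690% in untreated cells.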

How the data were processed

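Per the labels' protocols, formaldehyde-fixed chromatin was broken into pieces of 200 to 500 bp, and H3K9ac was precipitated with a Millipore antibody, H3K9me2 with one from Abcam. The build was hg19 and the tools were Trimmomatic 0.32, BWA 0.7.5, Picard, SICER and MACS2, per the submitters' processing notes, which tie no tool to a list. Neither caller settings nor depth were stated in the sources used here.

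The authors deposited 10 interval lists without headers: 8 of single libraries with the authors' score per interval, and 2 reproducible H3K9ac sets, 1 per condition, whose deposited score was read as −log10 of an irreproducible discovery rate. Other deposited columns, starts and ends, served as positions. Since ends in the H3K9me2 lists fall on the final base of an island, 1 bp was added. Scores only ranked intervals within a list.

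Cover, overlap (at least 1 bp) and exact two-sided permutation tests used Python 3.11.15, SciPy 1.17.1, numpy 2.4.6 and pandas 2.3.3. Figures were drawn with matplotlib 3.10.9. Limma 3.58.1 in R 4.3.3 was fitted with a mean-variance trend to the arcsine square root of covered shares over all bins or merged regions of the genome, leaving out those at 0 in all 4 libraries, with a threshold of 0.05 after Benjamini-Hochberg adjustment. It was also run on simulated data, with results not given here.

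The windows, stretches and comparisons were chosen with earlier results of these data known. The rule named, per mark, the 5 steps with the highest cover and the 5 with the largest difference in each direction, the runs of H3K9me2 steps, the 5 widest DETA/NO regions, the regions meeting an island, and the 5 gained and lost regions of highest score. Other steps and regions were named after their values were seen. Replicates of a mark are biological per the series' design text. No gene position on hg19 was given, so the comparison of gene-dense with gene-poor steps was replaced by that of stretches, and no sequence was read. All coordinates count from 1. Alternatives left out each library, changed the filter, trend, scale, bins, list cut-offs and overlap rule, or added a replicate block.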

Additional observations from a re-analysis of the deposited data

How the results depend on the processing

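Leaving out 1 library at a time moved the H3K9ac length difference between 104.2 and 255.1 kb, the H3K9ac share difference between 0.0731 and 0.316 points, and the H3K9me2 length difference between -20.0 and 88.0 kb. The H3K9me2 share difference of -0.00324 points ranged from -0.0560 to 0.0496. It turned to 0.0185 with lists cut to equal length and to 0.0120 with the intervals above the median score of each list. With the same settings, in that order, the H3K9ac share difference of 0.194 points fell to 0.135 and to 0.0557. The last value lies below the range over the libraries left out. The H3K9ac length difference of 179.6 kb did not fall, at 198.1 and 182.5 kb. Gained regions ranged from 28 to 50 and lost from 3 to 4. The reproducible sets were kept in these counts and a library left out only where absence was judged, so they could not fall. Gained regions numbered 86 when at least 50% of a region had to be covered to count as shared, 74 when absence was judged from the other reproducible set, and 0 above the median score. Lost regions numbered 7 against the other set and 0 above the median score. Steps with H3K9me2 in all 4 libraries numbered 18 at any cover. Limma's counts over the libraries left out ran from 0 to 7 for lower H3K9ac steps (0 for higher), 0 to 2 and 0 to 1 for higher and lower H3K9me2 steps, and 2 to 29 and 0 to 3 for higher and lower merged regions. A lone library was there assumed to vary like the others. Merged regions called higher numbered 98 with untransformed percent (42.6%, against 49.4% over the genome). With regions of both sets only, an alternative added after seeing the data, 0 were higher and 0 lower. The cause of these shifts was not tested. Of the recomputed values, 89 kept their direction and stayed on their side of the threshold or near their size, 19 moved and 4 turned.

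Same-numbered libraries share only a number, since no label ties it to a batch or day. Their deviations correlated at 0.0216 for H3K9ac and -0.157 for H3K9me2, over 2 pairs. With the replicate block, 33 H3K9ac steps and 164 merged regions were called higher (47.1 and 71.3%, against 11.1 and 74.1% over the genome), 0 and 3 lower, and 0 H3K9me2 steps in either direction, also 0 with crossed numbers, which were added after seeing the data. The H3K9me2 block called 5 bins higher and 14 lower over the genome. Alternatives on gene density were not run, since they need gene positions on hg19. Depth is unknown, and the 2 libraries per group limit every comparison.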
